A study of Mus musculus with 2 samples.

Results

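The miR-183, miR-96 and miR-182 cluster is a set of 3 miRNA genes, Mir183, Mir96 and Mir182, out of the 1174 miRNA hairpins that were searched. A tag, a distinct sequence with its number of reads, was counted for the cluster when it matched 1 of the 3 hairpins perfectly over its whole length, whatever its arm or length. This gave 100 distinct tags, with 25693 reads in the control library and 30660 reads in the PD library. J1 mESCs, a mouse embryonic stem cell line, were kept on gelatin without feeders in medium with 1000 U/mL of the self-renewal cytokine LIF, and were treated for 24 h with 1 μM PD0325901 (PD) in one group and with an equal volume of its solvent DMSO in the other (control). PD inhibits MEK and thereby blocks ERK1/2 signaling, and the comparison asks which miRNAs respond to that block. Each treatment gave 1 library, made from a pool of RNA of 3 independent experiments (no replicates), and the libraries held 18870345 and 20944808 clean reads. The embryonic stem cell miRNA miR-290a-5p was abundant in both, at 10977 RPM (reads per 1000000 clean reads) without PD and 9065 RPM with PD.

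The 3 hairpins of the cluster are cut from 1 primary transcript. Drosha releases each hairpin, Dicer removes its loop, and 1 of the 2 arms, named 5p and 3p after their side of the hairpin, is then preferentially loaded into the silencing complex. The targets of a miRNA are recognised mainly through its seed, bases 2 to 8 from the 5′ end. The cluster is conserved among animals and is best known from sensory organs, where it is abundant in hair cells and photoreceptors, and changes in the seed of miR-96 cause hearing loss in mice and humans. It is also expressed in embryonic stem cells and in many epithelia and carcinomas, and miR-182 and miR-96 are known to repress FoxO transcription factors.

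In the build GRCm38 all 3 hairpins are on chromosome 6, on the minus strand. Mir183 runs from 30169668 to 30169737, Mir96 from 30169446 to 30169551 and Mir182 from 30165918 to 30165992. Only 116 bases separate Mir183 from Mir96, while 3453 bases separate Mir96 from Mir182, and the whole cluster spans 3820 bases. GENCODE M21 has no other gene that overlaps a hairpin. The RefSeq table places the noncoding gene Mirc35hg around all of them, from 30158640 to 30174125. The nearest other GENCODE gene is the lincRNA Rncr4, which starts 3156 bases from Mir183 on the opposite strand.

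The mature sequences of the 5p arms, which carried most of the reads, are given below from RefSeq (GRCm38.p6) with the seed in capitals, because the 3 seeds are close relatives.
miR-183-5p: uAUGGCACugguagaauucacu
miR-96-5p: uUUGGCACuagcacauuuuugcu
miR-182-5p: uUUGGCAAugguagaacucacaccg
The seeds of miR-96-5p and miR-182-5p share bases 2 to 7 (UUGGCA), and those of miR-183-5p and miR-96-5p are the same at 6 of 7 positions. Over the whole length, miR-183-5p is closer to miR-182-5p, with 18 of 22 bases the same when both are read from the 5′ end. For miR-183-5p and miR-96-5p this number is 13 of 22, and for miR-96-5p and miR-182-5p it is 12 of 23. Outside the cluster, RefSeq lists 1 other miRNA with the seed of miR-96-5p (UUGGCAC), miR-1271-5p, whose hairpin matched 0 reads in either library, which allows a level of up to 0.159 RPM without PD and 0.143 RPM with PD (3 reads).

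The hairpins themselves show where the reads came from. In the sequences below (GENCODE M21, DNA letters) the most frequent tag of each arm is in capitals.
Mir183: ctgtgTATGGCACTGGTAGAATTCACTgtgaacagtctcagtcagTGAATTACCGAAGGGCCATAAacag
Mir96: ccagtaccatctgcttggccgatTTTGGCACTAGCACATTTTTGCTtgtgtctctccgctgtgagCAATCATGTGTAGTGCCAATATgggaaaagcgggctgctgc
Mir182: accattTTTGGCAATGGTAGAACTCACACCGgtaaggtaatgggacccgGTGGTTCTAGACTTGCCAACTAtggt
The most frequent tags of miR-183-5p, miR-96-5p, miR-96-3p and miR-182-5p were identical to the RefSeq mature miRNAs. That of miR-182-3p was 1 base longer at its 3′ end. That of miR-183-3p started 1 base later than RefSeq gives, so that its seed read GAATTAC in place of the RefSeq seed UGAAUUA. None of the 100 tags matched another miRNA hairpin or another GENCODE transcript, and a single antisense tag was found, with 0 reads in the control and 1 read in the PD library.

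**Figure D1:**
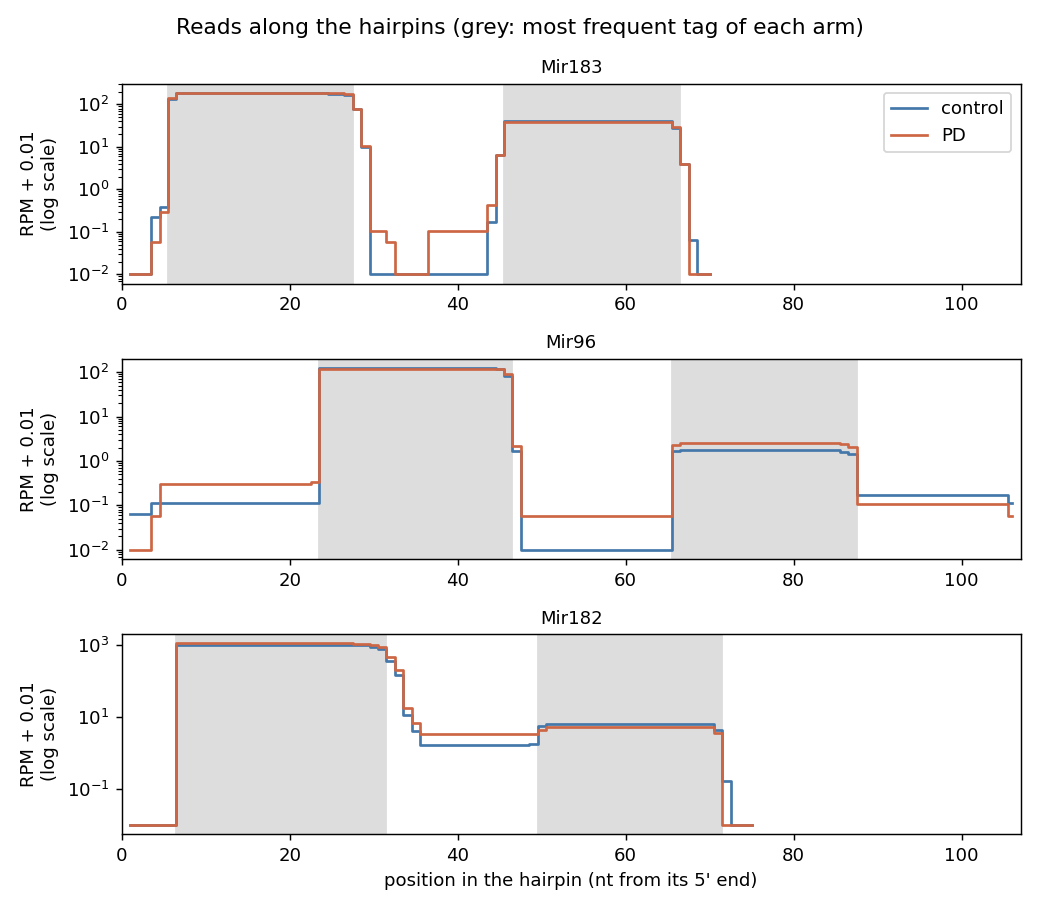
RPM of clean reads (log scale, 0.01 added) that cover each position of the hairpins Mir183, Mir96 and Mir182, counted from the 5′ end, in the control (blue) and PD (orange) libraries, with the most frequent tag of each arm in grey. Coverage was concentrated on the arms in both libraries, and between the arms of Mir182 a level of 1.70 RPM (control) and 3.34 RPM (PD) remained.

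The cluster was dominated by miR-182-5p. Mir182 supplied 74.4% of the reads of the cluster in the control (95% Wilson interval 73.9 to 74.97) and 76.1% in the PD library (75.6 to 76.6). Mir183 supplied 16.3% and 15.6%, and Mir96 supplied 9.22% and 8.34%. The level of miR-182-5p was 1005 RPM without PD and 1105 RPM with PD, which placed it at rank 24 and rank 21 of the 1144 miRNA arms with reads. The level of miR-183-5p was 181.9 RPM and 188 RPM, and that of miR-96-5p was 124 RPM and 119 RPM. The order of the 5p arms was thus the same in both libraries. RPM values of different miRNAs also depend on how well each sequence is ligated and amplified, so the order is that of reads.

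Reads of the 3p arms were fewer. The level of miR-183-3p was 40.5 RPM without PD and 39.6 RPM with PD. The level of miR-182-3p was 6.57 RPM and 5.20 RPM, and that of miR-96-3p was 1.75 RPM and 2.48 RPM. The arms of Mir183 were therefore the least unequal, with 4.49 reads of the 5p arm for each read of the 3p arm in the control and 4.76 in the PD library. For Mir96 the ratio was 70.7 in the control and 48.0 in the PD library, and for Mir182 it was 153 and 212. The change of the ratio between the libraries was 1.39-fold for Mir182 (95% interval 1.06 to 1.81) and did not pass Fisher's exact test (adjusted p = 0.0788 over 15 pairs of arms). It was 0.679-fold for Mir96 (0.424 to 1.07) and 1.06-fold for Mir183 (0.9505 to 1.18), which did not pass either (adjusted p = 0.188 and 0.314 in the same exact test).

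**Figure D2:**
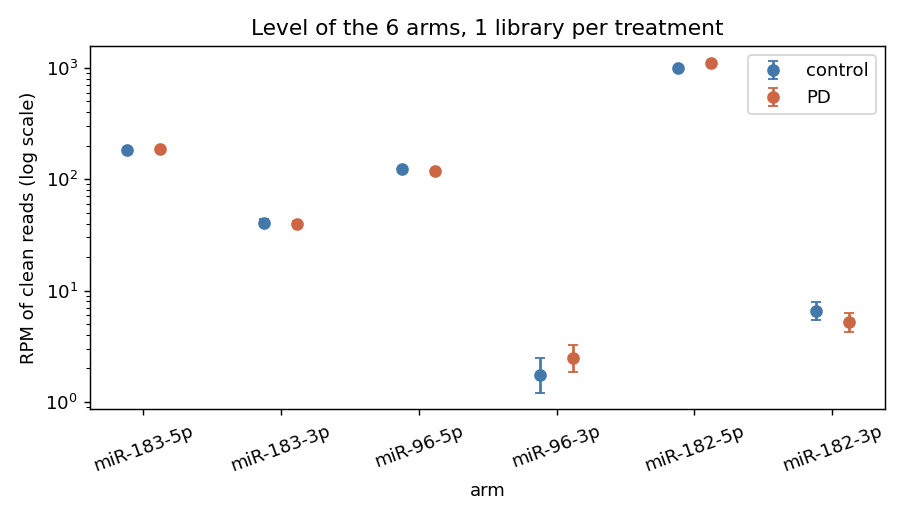
Level of each arm in RPM of clean reads (log scale) in the control (blue) and PD (orange) libraries, with exact Poisson 95% intervals that cover the sampling of reads only. The arms span from 1.75 RPM for miR-96-3p to 1005 RPM for miR-182-5p in the control, and the points of both libraries lie close together for each arm.

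None of the 6 arms changed by 1.5-fold or more, the criterion of the study, when levels were set against all clean reads. Of the 510 miRNAs that reached 1 RPM in at least 1 library (detected), 13.1% were lower in the PD library by this criterion. Another 6.27% were higher, 19.4% in all, and 0 of 6 arms is to be read against these shares. A tag that matched hairpins of different names was counted for each, so some of the 510 hold the same reads. The read counts of miR-182-5p were 18969 (control) and 23149 (PD), which is a 1.10-fold level (95% Clopper-Pearson interval 1.08 to 1.12, adjusted p = 2.33e-21 in the exact binomial test over the detected miRNAs). This test and all intervals cover the sampling of reads in these 2 libraries and not the variation between cultures or libraries. For miR-183-5p the counts were 3433 and 3947 (fold change 1.04, interval 0.989 to 1.08), and for miR-96-5p they were 2332 and 2495 (0.964, interval 0.911 to 1.02). For miR-183-3p they were 765 and 829, a fold change of 0.976 (interval 0.884 to 1.08). The counts of miR-182-3p were 124 and 109 (0.792, interval 0.607 to 1.03), and those of miR-96-3p were 33 and 52 (1.42, interval 0.901 to 2.27). With clean reads as denominator, every arm apart from miR-182-5p had an interval that includes 1. Differences within these intervals were not detectable at this depth. The intervals do not cover the choice of the denominator and move with it.

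The typical miRNA was lower in the PD library when all clean reads were the denominator. For the 510 detected miRNAs the log2 fold change had a median of -0.16, and the quartiles were -0.40 and 0.06. The share of clean reads of 20 to 24 nt was 63.03% without PD and 52.04% with PD, and that of 28 to 32 nt was 7.11% and 16.96%. Reads that match miRNA hairpins perfectly were only 11.56% of the clean reads without PD and 10.08% with PD. With the reads that match miRNA hairpins as denominator, the median log2 fold change was 0.03. Of the detected miRNAs, 27 were then lower and 51 higher by 1.5-fold (67 and 32 with clean reads). The fold change of miR-182-5p was 1.26. The same denominator gave 1.19 for miR-183-5p, 1.11 for miR-96-5p, 1.12 for miR-183-3p, 0.908 for miR-182-3p and 1.63 for miR-96-3p. The directions of miR-96-5p and miR-183-3p thus flipped with the denominator, and miR-96-3p, with 85 reads over both libraries, passed 1.5-fold. Relative to the median of the detected miRNAs, the fold changes were 1.23 for miR-182-5p, 1.16 for miR-183-5p and 1.08 for miR-96-5p. Summed over all tags of the 3 hairpins, the level was 1362 RPM without PD and 1464 RPM with PD (fold change 1.08, interval 1.06 to 1.09).

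**Figure D3:**
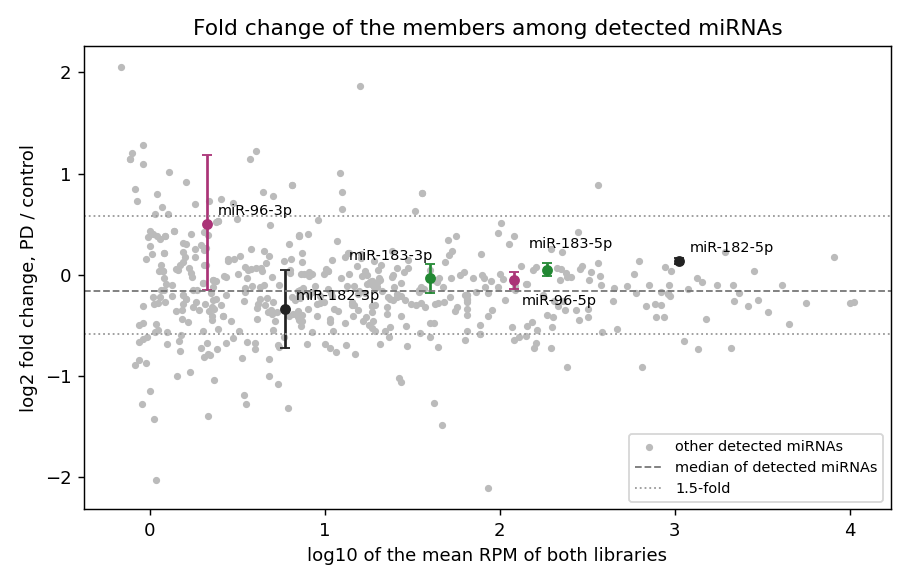
Log2 ratio of the PD level to the control level for the 510 detected miRNAs (grey) by the log10 of their mean RPM, with the arms of miR-183 (green), miR-96 (purple) and miR-182 (black) and their 95% Clopper-Pearson intervals. The dashed line is the median of all detected miRNAs at -0.16, the dotted lines mark 1.5-fold, and all 6 arms lie between the dotted lines.

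Differences between the members do not depend on the denominator. Of the 15 pairs of arms, 1 differed in fold change by Fisher's exact test with Benjamini-Hochberg adjustment. The fold change of miR-96-5p was 0.877 times that of miR-182-5p (95% interval 0.826 to 0.931, adjusted p = 2.34e-04 in Fisher's exact test). When only the most frequent tag of each arm was counted, the direction was the opposite, and the fold change of miR-96-5p was 1.15 times that of miR-182-5p (Fisher's exact test, p = 3.16e-04). The fold change of miR-183-5p was 0.942 times that of miR-182-5p (interval 0.896 to 0.990) and did not pass the adjusted test (adjusted p = 0.0788 in Fisher's exact test). Between miR-183-5p and miR-96-5p, whose hairpins are neighbours, the ratio was 1.07 with an interval of 0.999 to 1.16 (adjusted p = 0.115 in Fisher's exact test). The reversal between all tags and the most frequent tag traces to the lengths of the tags, which differed between the libraries for both miRNAs.

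The tags of miR-96-5p ended at the full length of 23 nt more often in the PD library. Its most frequent tags, with the seed in capitals, are these, printed because they differ only at the 3′ end.
miR-96-5p, 23 nt: tTTGGCACtagcacatttttgct
miR-96-5p, 22 nt: tTTGGCACtagcacatttttgc
miR-96-5p, 21 nt: tTTGGCACtagcacatttttg
The 23-nt tag went from 1471 to 1897 reads, or from 63.1% to 76.0% of the reads of the arm. The 22-nt tag, which lacks the last T, went from 756 to 505 reads, a fold change of 0.602 (interval 0.537 to 0.674), and the 21-nt tag went from 64 to 35 reads. Tags that end before the full length held 35.3% of the reads of the arm without PD (Wilson interval 33.4 to 37.3) and 21.9% with PD (20.3 to 23.5), an odds ratio of 0.513 (0.450 to 0.583, adjusted p = 4.81e-24 in Fisher's exact test over 24 classes of tags). With clean reads as denominator, the shorter forms were thus lower and the full-length form was higher, while the interval of the sum over all tags included 1. The 5′ end was nearly fixed, with a shifted first base in 0.343% and 0.361% of the reads.

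The tags of miR-182-5p became longer beyond their most frequent form. They are printed below with the seed in capitals.
miR-182-5p, 24 nt: tTTGGCAAtggtagaactcacacc
miR-182-5p, 25 nt: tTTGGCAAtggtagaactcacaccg
miR-182-5p, 26 nt: tTTGGCAAtggtagaactcacaccgg
miR-182-5p, 27 nt: tTTGGCAAtggtagaactcacaccggt
The 25-nt tag had 7778 reads in the control and 8742 in the PD library, which is 1.013-fold (interval 0.982 to 1.04), and the 24-nt tag had 2120 and 2354 reads (1.00, interval 0.943 to 1.06). The 26-nt tag had 4016 and 5352 reads (1.20, interval 1.15 to 1.25), and the 27-nt tag had 2482 and 3798 reads (1.38, interval 1.31 to 1.45). With all clean reads as denominator, the higher level of miR-182-5p was therefore carried by the tags that extend past the most frequent 3′ end. With the reads that match miRNA hairpins as denominator, the fold change of every tag is higher by the same factor, the 24-nt and 25-nt tags included. The share of the tags that extend past this end does not depend on the denominator. It was 35.4% without PD (34.7 to 36.1) and 40.9% with PD (40.3 to 41.5), an odds ratio of 1.26 (1.22 to 1.32, adjusted p = 7.71e-30 in Fisher's exact test). Shorter tags made up 23.5% and 21.2% (odds ratio 0.876, adjusted p = 1.18e-07 in the same exact test). With 76.4% of its control reads at 25 nt or more, miR-182-5p ranked first in this share among the 169 miRNAs with at least 500 reads in each library, whose median was 0%.

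The ends of miR-183-5p varied at the 5′ side, and none of its classes of perfectly matching tags passed the test between the libraries. The tags are printed below because the second form has another seed.
miR-183-5p, most frequent: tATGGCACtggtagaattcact
miR-183-5p, 1 base later: aTGGCACTggtagaattcactg
The first base was shifted in 25.8% of its reads without PD (Wilson interval 24.3 to 27.3) and in 25.6% with PD (24.3 to 26.97), with an odds ratio of 0.990 (0.890 to 1.10, adjusted p = 1 in Fisher's exact test). A shift by 1 base turns the seed ATGGCAC into TGGCACT. In the control this share ranked 17th among the 169 miRNAs, whose median was 1.49% and whose upper quartile was 6.20%. Tags longer at the 3′ end made up 43.2% and 42.3%, and shorter ones 7.19% and 7.45%. On the other arm, 15.9% (control) and 16.5% (PD) of the reads of miR-183-3p started elsewhere than the most frequent tag, most of them at the RefSeq position. These differences did not pass Fisher's exact test (adjusted p from 0.822 to 1).

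**Figure D4:**
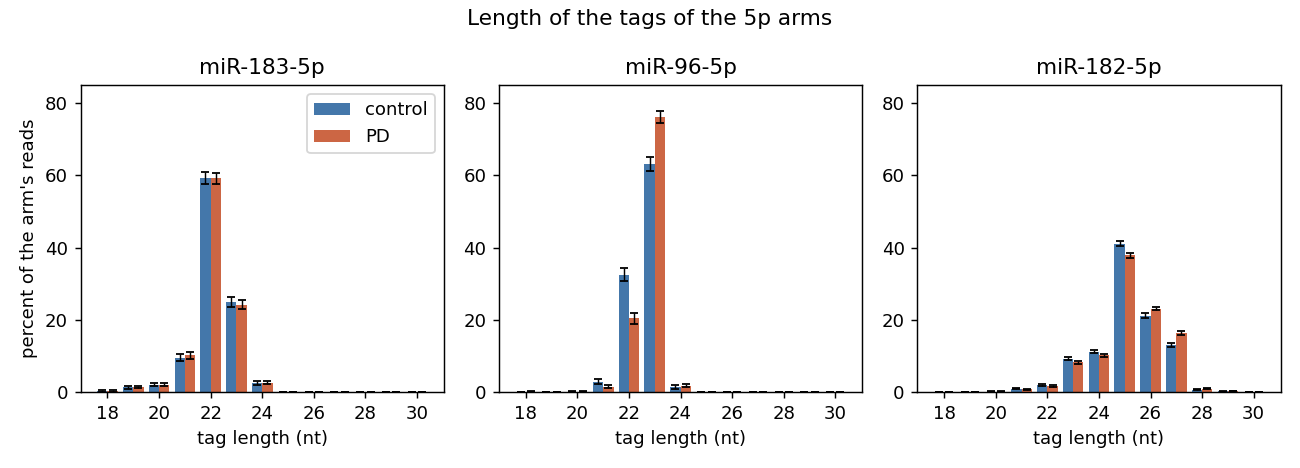
Share of the reads of miR-183-5p, miR-96-5p and miR-182-5p by tag length in nt, in the control (blue) and PD (orange) libraries, with 95% Wilson intervals. The 23-nt bar of miR-96-5p is higher and the 22-nt bar lower in the PD library, the 26-nt and 27-nt bars of miR-182-5p are higher in the PD library, and the bars of miR-183-5p overlap.

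Longer tags in the PD library were not limited to the cluster. The mean tag length was greater in the PD library for 147 of the 169 miRNAs with at least 500 reads in each library. The median shift was 0.0705 nt, and the quartiles were 0.0126 and 0.188 nt. The mean length of miR-96-5p went from 22.6 to 22.8 nt, a shift of 0.151 nt that ranked 56th, and that of miR-182-5p from 25.1 to 25.2 nt, a shift of 0.133 nt that ranked 59th. The shift was 0.0471 nt for miR-183-3p, at rank 99, and -0.0094 nt for miR-183-5p, at rank 152. The shifts of miR-96-5p and miR-182-5p lay below the upper quartile of the background. The clean reads as a whole were also longer in the PD library, and the part of this in the length of the miRNA tags was not tested. Outside the 3 hairpins, tags of 25 nt or more made up 0.544% of the miRNA reads in the control and 0.564% in the PD library.

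**Figure D5:**
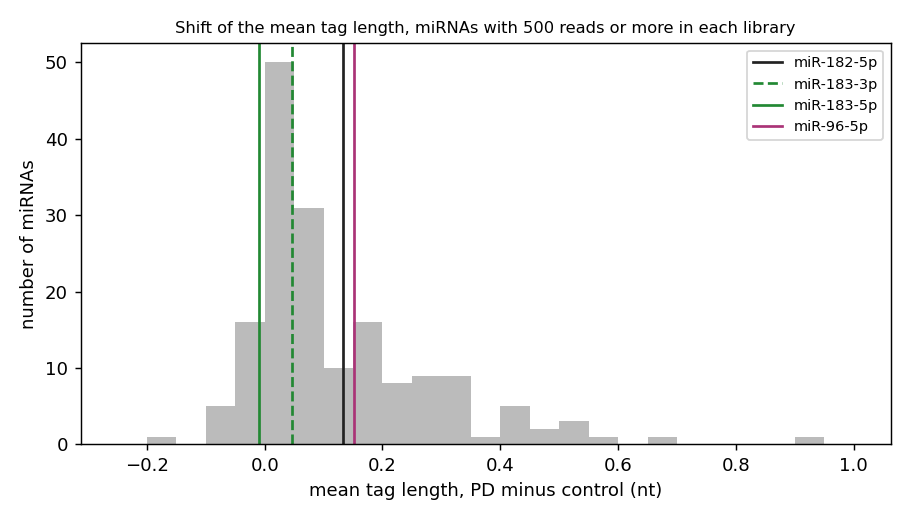
Number of miRNAs (at least 500 reads in each library) by the difference of their mean tag length, PD minus control, in nt. Lines mark the arms of the cluster with enough reads: miR-183-5p at -0.0094 nt, miR-183-3p at 0.0471 nt, miR-182-5p at 0.133 nt and miR-96-5p at 0.151 nt. The shift of miR-183-5p lies below the lower quartile (0.0126 nt), and those of the other marked arms lie between the quartiles.

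Some tags matched the hairpin perfectly and then ended in 1 to 3 bases that the hairpin does not hold. Such untemplated tails can be added to mature miRNAs by terminal nucleotidyl transferases, and errors at the end of a read were not told apart from them. They were most common on miR-183-5p, miR-182-5p and miR-183-3p and rare on miR-96-5p and miR-182-3p. The most frequent tailed tags are printed below with the tail in capitals.
miR-182-5p, tailed: tttggcaatggtagaactcacaccgA
miR-183-5p, tailed: tatggcactggtagaattcactgA
The tailed tag of miR-182-5p had 1054 reads in the control and 1246 in the PD library, and that of miR-183-5p had 348 and 365. Of all perfect and tailed reads of miR-182-5p, 15.9% in the control (15.4 to 16.3) and 18.4% in the PD library (17.97 to 18.9) had a tail (odds ratio 1.20, adjusted p = 2.15e-13 in Fisher's exact test). Tails of U alone went from 4.45% to 5.89%, and tails of A alone from 9.17% to 9.61%. For miR-183-5p the share with a tail was 19.8% and 17.6%, an odds ratio of 0.865 (0.777 to 0.962, adjusted p = 0.0336 in Fisher's exact test), with A alone in 18.7% and 16.6% and U alone in 0.327% and 0.334%. On miR-183-3p tails of U alone were counted in 11.1% of the reads in the control and those of A alone in 0.223%. The hairpin continues with an A after the most frequent tag of this arm. An A added there gives the templated 22-nt tag (66 reads in the control and 76 in the PD library). The shares of U and A on this arm therefore cannot be compared. For miR-96-5p the share with a tail was 1.02% and 0.992%, and for miR-182-3p tails were found on 0 of 124 and 1 of 110 reads. For miR-96-3p they were found on 1 of 34 and 5 of 57 reads. In all, 5 of the 24 classes of tags passed the adjusted test, 2 with a larger and 3 with a smaller share in the PD library.

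Few reads came from outside the arms, and these met the arms without a gap. The most frequent was the loop of Mir182, shown here because it fills exactly the 18 bases between the most frequent tags of both arms, at positions 32 to 49 of the hairpin.
Mir182 loop: gtaaggtaatgggacccg
This tag is 18 nt long, the shortest length that was kept, so shorter fragments of the loop were not counted. It had 31 reads in the control and 69 in the PD library. With a second tag of 1 read in each library, the fold change was 1.97 (95% Clopper-Pearson interval 1.28 to 3.10). This passes the 1.5-fold criterion, although the loop is not among the detected miRNA arms and its test was not adjusted with them (exact binomial test, p = 0.00139). Per 1000 reads of miR-182-5p there were 1.69 loop reads in the control and 3.02 in the PD library. The fold change of the loop was 1.79 times that of miR-182-5p (interval 1.16 to 2.82, p = 0.00685 in Fisher's exact test) and 2.49 times that of miR-182-3p (1.48 to 4.21, p = 2.26e-04 in the same exact test), neither of which was adjusted. The loop was chosen for these tests after its reads were seen. In Mir96, tags that end at the base before miR-96-5p had 2 reads in the control and 6 in the PD library, and those that start right after miR-96-3p had 3 and 2. Every tag of Mir183 overlapped one of its arms.

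For comparison, the same measure was taken for the miR-200 and miR-141 family, an epithelial miRNA family likewise expressed from hairpin clusters, and for a cluster that is paralogous to the miR-17 cluster, miR-106b-25. Of the 6 arms of miR-183, miR-96 and miR-182, 3 were below and 3 above the control level, with a median fold change of 1.006 and a range of 0.792 to 1.42. The 6 detected arms of the miR-200 and miR-141 family had a median of 0.960 and a range of 0.711 to 1.26, with 4 below and 2 above the control. In the miR-106b-25 cluster, also of 3 hairpins, all 5 detected arms were below the control level, with a median of 0.902 and a range of 0.714 to 0.993. Over all 510 detected miRNAs 67.5% were below the control, and the median log2 fold change was -0.16. With the reads that match miRNA hairpins as denominator, a count added after the data were seen, 46.5% of all detected miRNAs were below the control, against 1 of 6 arms of miR-183, miR-96 and miR-182, 2 of 6 of the miR-200 and miR-141 family and 1 of 5 of miR-106b-25, so that the direction of most miR-106b-25 arms flipped. The number of arms past 1.5-fold with clean reads was 0 in each of these sets, where 19.4% of all detected miRNAs passed. The sum of the detected arms was 137 RPM in the control for the miR-200 and miR-141 family, 1360 RPM for the 6 arms of miR-183, miR-96 and miR-182 and 6746 RPM for miR-106b-25. These are descriptions of 2 libraries, and the difference between the sets was not tested.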

How the data were processed

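Small RNA of J1 mESCs was gel purified, ligated to adapters, amplified and sequenced by the authors, who discarded reads of poor quality, adapter and contaminant reads and those shorter than 18 nt, and collapsed identical reads. The labels name an RNA library kit and list the build mm9. The deposited values are raw read counts per tag, without alignment or normalization, summing to 18870345 (control) and 20944808 (PD). RNA of 3 experiments was pooled per library. The aligner is not given in the sources used here.

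Tags were matched to the hairpins of GENCODE M21 (GRCm38) with Python 3.11.15, and arms were separated by folding with ViennaRNA 2.7.2. The most frequent tag of an arm, over both libraries, defined the mature miRNA, and tags with an overlap of 16 nt or more were assigned to it. Hairpin copies of the same name were merged, and a tag that matched hairpins of different names was counted for each. Counts were normalized to clean reads as RPM, with 0.01 RPM in place of 0. Shares, pairs and fold changes were tested with SciPy 1.17.1 (exact binomial and Fisher's exact tests, Benjamini-Hochberg adjustment). Tests that need replicates were not run. A tail was 1 to 3 untemplated bases after at least 18 templated ones. The code was tested on simulated data. Alternatives were other denominators (TMM of edgeR 4.0.16 and size factors of DESeq2 1.42.0 among them), tag rules, filters and a 2-fold threshold. Every arm, every tag class outside the arms and up to 5 tags of each arm could be named. The members and lists were chosen with earlier results of these data known. The number of columns of other samples was 0.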

Additional observations from a re-analysis of the deposited data

How the results depend on the processing

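Each treatment had 1 library, so no result could be checked by leaving out a replicate. No paired analysis was possible because the RNA of 3 experiments was pooled into 1 library per treatment. The number of arms lower by 1.5-fold was 0 under every alternative run. The fold change of miR-96-3p passed 1.5-fold with the denominators reads that match miRNA hairpins (1.63), clean reads of 20 to 24 nt (1.72), TMM (1.59) and DESeq2 size factors (1.59), with tags of 21 nt or more (1.53) and with untemplated tails (1.51), so that 1 arm was higher in these 6 settings and 0 otherwise. With the same 4 denominators the fold change of miR-183-3p turned to 1.12, 1.18, 1.09 and 1.09, and that of miR-96-5p to 1.11, 1.17, 1.08 and 1.08. The most frequent tag alone gave 1.16 for miR-96-5p and 1.15 for the ratio of its fold change to that of miR-182-5p, since the tag lengths shifted. The summed fold change was 1.23, 1.30, 1.20 and 1.20 with the 4 denominators, 1.04 with the most frequent tags and 1.10 with untemplated tails. Without a filter on low levels, 25.6% of the miRNAs were lower and 23.1% higher by 1.5-fold. In these 2 libraries the counts of miR-96-3p and of the Mir182 loop limit what can be read from them, and differences between cultures cannot be told apart from those between treatments.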
